A study of Mus musculus with 18 samples.

Results

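Regulatory T cells (Treg cells) recovered from mouse peripheral blood were compared with Treg cells recovered from bone marrow, with 3 poly(A) RNA libraries in each group. Both groups were CD4+Foxp3+ T cells, freshly sorted from wild-type, untreated mice per the labels, which name no strain, sex, age, sorting gate or number of animals per library. The 6 libraries belong to a series of 18 from 6 organs, 3 libraries each, that set circulating Treg cells beside those of spleen, lymph node, liver, lung and bone marrow. Nothing states that replicate libraries came from separate animals. The p-values therefore measure the spread between replicate libraries, pooled over all 18 libraries of the 6 organs, which may be technical.

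The genes described here were chosen by their lymph node values: they are those with a mean of at least 10 TPM (a length-normalised share of a library's RNA) in the 3 lymph node libraries. That limit left 8421 of the 16694 genes tested and of the 55487 gene IDs in each table. Lymph node was used to choose genes because it held the least RNA of myeloid cells, and it is on neither side of the comparison. At the limit, Crls1 and B3gnt5 lay just inside with a lymph node mean of 10.007 TPM each, and Exoc8 (9.997 TPM) and Ppp2r3c (9.993 TPM) lay just outside. Differences are given as log2 fold changes on the log2(TPM + 1) scale, blood minus bone marrow, with the standard error (SE), and a value written with -fold is the ratio of the mean TPM of both groups. A gene is called higher or lower at a Benjamini-Hochberg adjusted p under 0.05 in limma, with adjustment over all 16694 genes.

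Treg cells restrain other immune cells and depend on the transcription factor Foxp3 and on IL-2 taken up through the receptor chain Il2ra. Resting Treg cells recirculate between blood and lymphoid organs by means of the chemokine receptor Ccr7 and the sphingosine phosphate receptor S1pr1. Effector Treg cells lose Ccr7 and gain tissue receptors, inhibitory receptors and the cytokine IL-10. Bone marrow holds a Treg population that is retained through Cxcr4 and its ligand Cxcl12 and is known for its closeness to blood stem cells.

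Markers of T cells were present in every library. Cd3e averaged 277 TPM in blood and 431 TPM in bone marrow, and Cd4 averaged 155 and 274 TPM. RNA of other cells was present too. The 59 monocyte and macrophage markers summed to 20023.2 TPM in blood, 7388 TPM in bone marrow and 919.6 TPM in lymph node. The 30 mature neutrophil markers summed to 22604.9, 38814.9 and 94.23 TPM in the same order, the 16 granulocyte progenitor markers to 667.4, 14675.1 and 12.01 TPM, and the 23 platelet markers to 4841, 160.4 and 81.04 TPM. Erythroid markers summed to 2984 TPM in blood and 6974 TPM in bone marrow, and B cell markers to 6275 and 4614 TPM. The lymph node limit left out all 16 granulocyte progenitor markers but kept 10 of the monocyte markers, 3 of the neutrophil markers and 17 of the 25 B cell markers, so genes that T cells share with those cells remained. In bulk libraries, fewer cells of a type and less RNA per cell cannot be told apart.

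Because TPM is a share, the zero point of the comparison was set in 3 ways. On the deposited TPM, 1047 of the 8421 genes were higher in blood (12.4%) and 2136 were lower (25.4%), 37.8% in either direction, and the median log2 fold change was -0.17. Over all 16694 genes tested, 13% were higher and 18.8% lower. All 3 blood libraries lay above all 3 bone marrow libraries for 22.7% of the genes and below them for 46.4%, against 23% and 35.6% of all genes tested. When each library was scaled to 20 general T cell genes, whose mean log2(TPM + 1) differed by -0.51 (blood minus bone marrow), 3419 genes were higher (40.6%) and 506 lower (6.01%). Under median-ratio scaling 1688 were higher (20%) and 1210 lower (14.4%). The share of calls that were higher in blood was therefore 32.9%, 87.1% or 58.2%, depending on the scale. Counts for the gene lists below are to be read against the shares of all 8421 genes on the same scale. On all 3 scales, 1047 genes were higher in blood (12.4%) and 506 were lower (6.01%). Of these, 254 of the higher and 374 of the lower genes changed by a log2 value of at least 1, and the median fold was 1.58 for the higher and 2.3 for the lower genes. Each scaling divides a library by 1 factor and so shifts nearly all genes alike. The counts on all 3 scales therefore equal those of the strictest scale per direction. That scale is deposited TPM for higher genes and the T cell scaling for lower genes, so agreement between scales is no separate support.

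**Figure D1:**
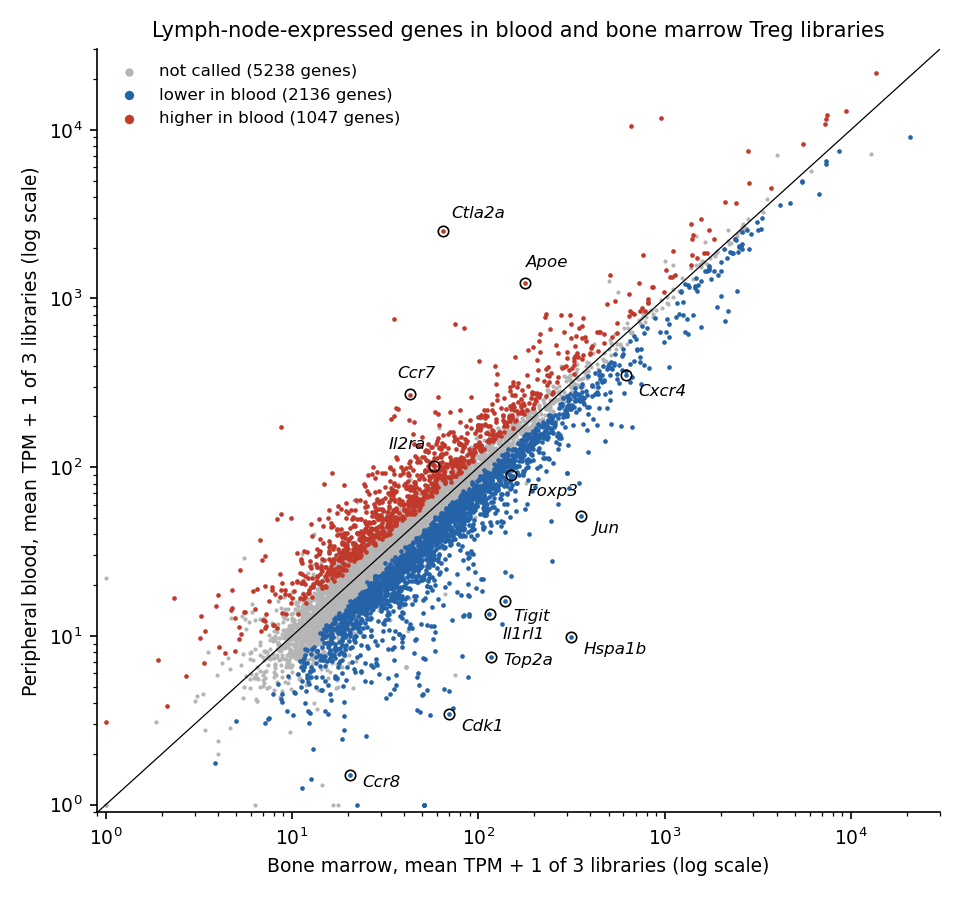
Each point is 1 of the 8421 genes, at its mean TPM + 1 in 3 bone marrow libraries (horizontal, log scale) and 3 blood libraries (vertical, log scale), coloured by the call on deposited TPM; the line marks equal values and circles mark named genes. More points lie below the line than above it (2136 lower and 1047 higher), and the genes farthest below it include Hspa1b, Cdk1, Top2a and Ccr8.

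The precision was similar on both sides. The median coefficient of variation between the 3 replicates was 6.57% in blood and 5.71% in bone marrow. It was taken over genes of at least 10 TPM in lymph node and in the group itself. Liver libraries were the most variable of the 6 organs at 18.5%, followed by lung (14.9%) and spleen (10.1%), while lymph node reached 4.99%. Because variances were pooled over all 18 libraries, the spread of these other organs also enters the SE and the calls. Its part in borderline calls was not tested. More genes were called among abundant ones: 16.3% were higher and 40.9% lower among the 1531 genes of at least 100 TPM in lymph node, against 11.4% and 18% among the 3348 genes of 10 to 30 TPM. The median SE was 0.09 in the former and 0.22 in the latter.

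The genes that define Treg cells divided between the sites. Of 20 measured Treg identity genes, 6 were higher and 10 lower in blood, with a median log2 fold change of -0.39, against 12.4% higher, 25.4% lower and a median of -0.17 over all 8421 genes. After scaling to the T cell genes the counts were 8 and 8 and the median was 0.09. Foxp3 was at 85.4, 88.4 and 92.2 TPM in the blood libraries and at 148, 150 and 144 TPM in the bone marrow libraries. All blood values lay below all bone marrow values (log2 fold change -0.73 ± 0.07, SE, adjusted p = 8.10e-07), and the difference was -0.22 after scaling to the T cell genes (adjusted p = 0.0144). The Treg transcription factor Ikzf2 (Helios) was at 56.4, 53 and 53.5 TPM in blood and 160, 155 and 159 TPM in bone marrow, 2.91-fold higher in the latter (-1.52 ± 0.08, adjusted p = 9.16e-10). Nrp1, a receptor of thymus-derived Treg cells, was likewise lower in blood (46.1 against 125 TPM, log2 -1.42).

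Il2ra, the high-affinity IL-2 receptor chain CD25, went the other way. It was at 99.8, 99.7 and 102 TPM in blood and 57.9, 52.8 and 60.7 TPM in bone marrow (log2 0.81 ± 0.10, adjusted p = 1.61e-05). Blood and bone marrow were both below lymph node, where Il2ra averaged 234 TPM. Gpr83, an orphan receptor of Treg cells, was at 28.2, 29.8 and 28.6 TPM in blood against 7.09, 4.93 and 6.52 TPM in bone marrow, a 4.67-fold difference (log2 2.07 ± 0.16, adjusted p = 7.27e-08). Lrrc32 (GARP), which presents latent TGF-beta on the Treg surface, averaged 39.1 and 17.2 TPM (log2 1.14 ± 0.07). Platelet markers were higher in blood as well (4841 and 160.4 TPM), and their part in the Lrrc32 result was not tested. The TNF receptor family members of the list ran in the opposite direction. Tnfrsf4 (OX40) was at 56.7, 55.5 and 54.1 TPM in blood and 176, 176 and 179 TPM in bone marrow (log2 -1.66 ± 0.06, adjusted p = 5.22e-12), and Tnfrsf9 (4-1BB) averaged 8.98 and 25.4 TPM (log2 -1.40).

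Inhibitory and costimulatory receptors held some of the clearest separations. Of 19 measured, 3 were higher and 8 lower in blood (11 and 7 after scaling to the T cell genes). Tigit, an inhibitory receptor of effector Treg cells that binds CD155, was at 16.9, 15.4 and 13.3 TPM in blood and at 137, 144 and 135 TPM in bone marrow. Bone marrow was thus 9.1-fold higher (log2 -3.11 ± 0.10, adjusted p = 3.06e-12), and its level was near those of lymph node (145 TPM) and spleen (142 TPM). Pdcd1 (PD-1) was at 4.29, 4.64 and 5.06 TPM in blood and 31.1, 33 and 31.4 TPM in bone marrow (log2 -2.54 ± 0.07). Ctla4, through which Treg cells strip CD80 and CD86 from antigen-presenting cells, was at 141, 132 and 128 TPM in blood against 310, 297 and 301 TPM (log2 -1.17 ± 0.06, adjusted p = 5.50e-10). Icos averaged 30.7 and 89.9 TPM (log2 -1.52), and Cd200r1 16.2 and 45.1 TPM (log2 -1.43). The 3 members higher in blood were Btla (106 and 47.9 TPM, log2 1.14), Tnfrsf1b (177 and 108 TPM, log2 0.71) and Cd28 (80 and 65.1 TPM, log2 0.29, adjusted p = 0.0193, and up to 0.0914 with a library left out). B cell markers (6275 and 4614 TPM) and monocyte markers (20023.2 and 7388 TPM) were higher in blood too, and their part in these 3 results was not tested.

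Most genes of the antigen receptor complex and its first signalling steps were lower in blood on deposited TPM and under median-ratio scaling. Of 29 genes, 22 were lower and 1 higher (Fyb, an adaptor, log2 0.36), with a median of -0.42. Median-ratio scaling gave 16 lower and 2 higher, with a median of -0.24. The T cell scaling uses genes of this list, which sets their centre near 0 by construction, and gave 7 lower and 9 higher. Trac, the constant region of the T cell receptor alpha chain, remained lower (389 and 1059.7 TPM, log2 -1.44, and -0.94 after that scaling), as did the kinase Zap70 (74 and 148 TPM, log2 -0.99, and -0.49). The inhibitory adaptors Sla2 (14.5 and 36.8 TPM) and Ubash3a (38.9 and 79 TPM) were lower as well, with log2 fold changes of -0.81 and -0.51 after that scaling.

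Genes of resting, recirculating T cells were higher in blood. Of 23, 17 were higher and 2 lower, with a median log2 fold change of 0.72, and the T cell scaling gave 20 and 1. Ccr7, which guides T cells into lymph nodes (chr11:99144196-99155077, minus strand, GRCm38), was at 255, 281 and 270 TPM in blood and 41.3, 44.8 and 39.7 TPM in bone marrow. Blood was 6.41-fold higher (log2 2.65 ± 0.07, adjusted p = 4.89e-13), and the bone marrow level was also the lowest of the 6 organs, with 197 TPM in lymph node and 135 TPM in spleen. Igfbp4, a marker of naive T cells, was at 104, 112 and 118 TPM against 36.6, 36.8 and 33.9 TPM (log2 1.61 ± 0.13).

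Differences were smaller or of the opposite sign in S1pr1, Klf2 and Il7r. S1pr1, the exit receptor that draws lymphocytes towards blood, was at 219, 226 and 221 TPM in blood and 199, 191 and 197 TPM in bone marrow. The libraries did not overlap, but the difference was small (log2 0.18 ± 0.06, adjusted p = 0.0296), and the call was lost when any single library was left out (adjusted p 0.0518 to 0.0987). Klf2, the transcription factor that maintains S1pr1, was lower in blood at 605, 604 and 671 against 771, 766 and 791 TPM (log2 -0.31 ± 0.07, adjusted p = 0.00266), and higher after the T cell scaling (0.20, adjusted p = 0.0252). Both sites lay above lymph node, where Klf2 averaged 185 TPM. Il7r, the IL-7 receptor, was the member farthest below zero, with 122, 104 and 112 TPM in blood and 240, 229 and 237 TPM in bone marrow (log2 -1.06 ± 0.07, adjusted p = 7.66e-09). Dapl1 was called higher (6.2 and 0.91 TPM, log2 2.02 ± 0.67, adjusted p = 0.0307), but leaving out a library raised its adjusted p to as much as 0.103. Markers of monocytes (20023.2 and 7388 TPM), B cells (6275 and 4614 TPM) and CD8 T, natural killer and innate lymphoid cells (1320 and 471.2 TPM) were higher in blood, and their part in these results was not tested.

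**Figure D2:**
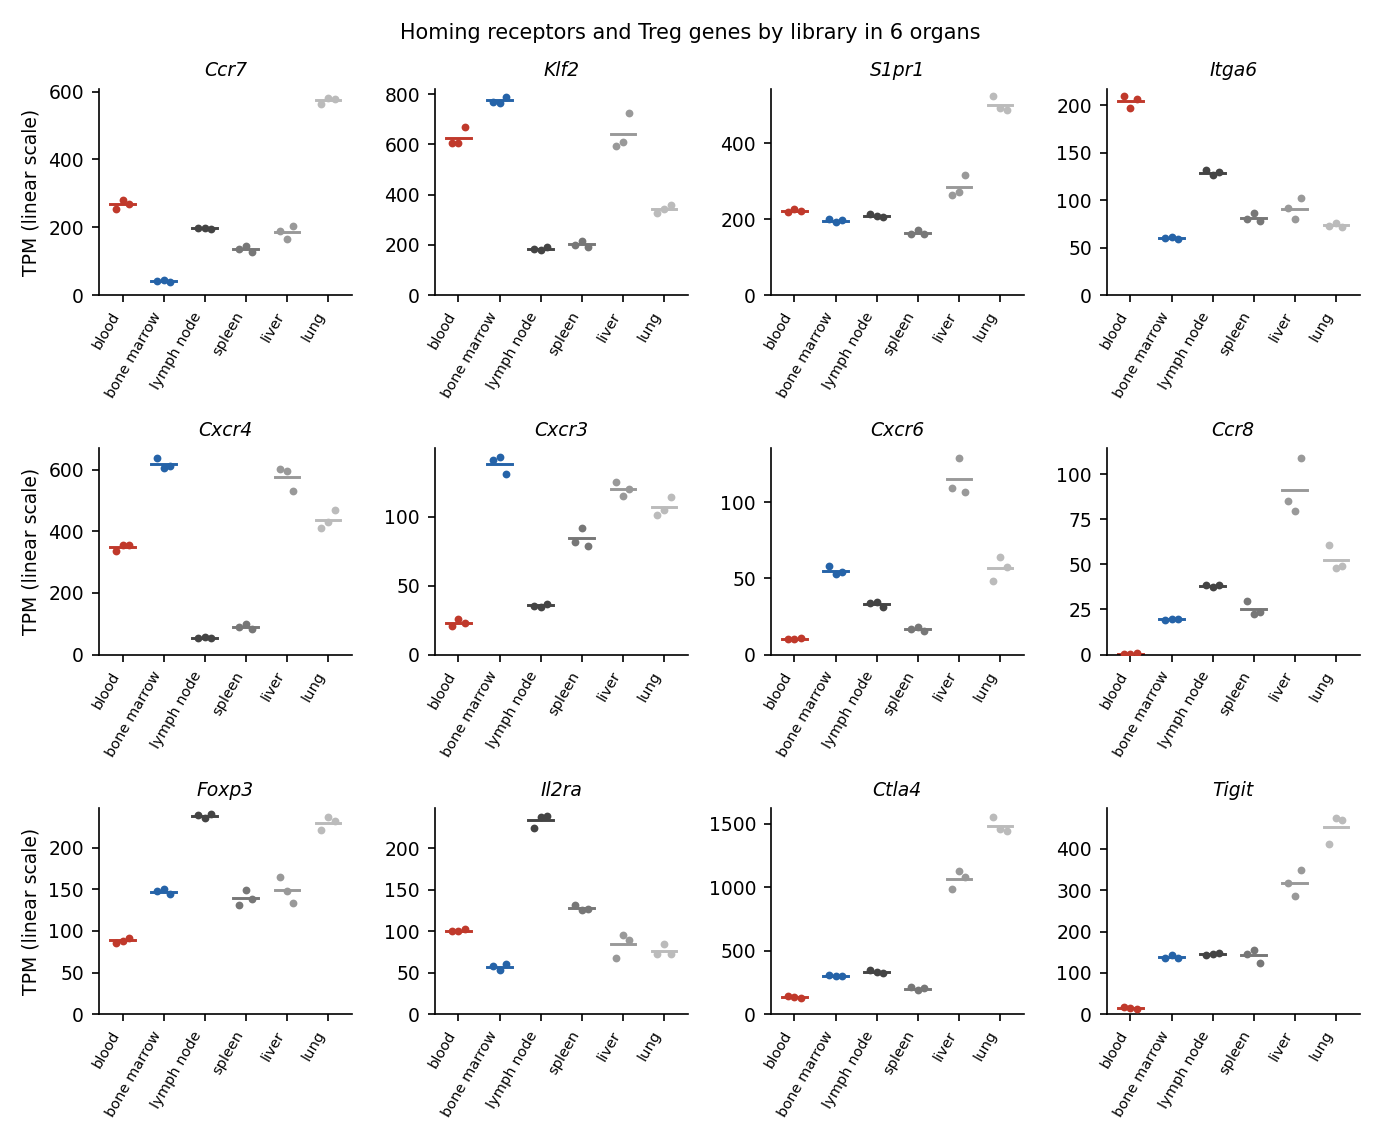
Each panel gives 1 gene in TPM (linear scale) in the 3 libraries of each of 6 organs (points) with the group mean (bar); blood is red and bone marrow blue. Ccr7 and Itga6 lie higher in blood than in bone marrow, Cxcr4, Cxcr3, Cxcr6, Ccr8 and Tigit lie lower, and S1pr1 differs little (222 and 196 TPM).

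Chemokine and sphingosine receptors differed in both directions. Of 16, 6 were higher and 8 lower in blood (7 and 6 after the T cell scaling). Ccr8, a receptor of tissue and effector Treg cells (chr9:120092114-120094906, plus strand), was at 0.33, 0.34 and 0.85 TPM in blood and 19.4, 19.6 and 19.6 TPM in bone marrow. Blood was lowest of the 6 organs, with values near 0, and bone marrow was below lymph node at 38.1 TPM. The difference on the log2(TPM + 1) scale was -3.78 ± 0.16 (adjusted p = 6.79e-11). Cxcr3, the receptor of interferon-induced chemokines, was at 20.4, 25.4 and 22.9 TPM in blood and 141, 143 and 131 TPM in bone marrow (log2 -2.55 ± 0.09, adjusted p = 6.40e-12), with 35.7 TPM in lymph node. Cxcr6, which binds Cxcl16, was at 10.3, 10.3 and 11 TPM in blood against 58.3, 52.8 and 53.9 TPM (log2 -2.28 ± 0.11). Ccr4, a skin and tissue homing receptor, averaged 10.6 and 51.8 TPM (log2 -2.18).

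Cxcr4, the receptor that retains cells in bone marrow, was at 338, 354 and 356 TPM in blood and 640, 606 and 613 TPM in bone marrow. The libraries were separate, and bone marrow was 1.77-fold higher (log2 -0.83 ± 0.07, adjusted p = 1.29e-07; -0.32 after the T cell scaling, adjusted p = 0.00102). Both sites stood above lymph node (54.7 TPM) and spleen (90.8 TPM), and bone marrow had the highest mean of the 6 organs, with liver at 577 TPM. Neutrophils and their precursors express Cxcr4 too, and their markers were higher in bone marrow. Their part in this result was not tested. Besides Ccr7 and S1pr1, the receptors higher in blood included Ccr2, the inflammatory monocyte and effector T cell receptor, at 366, 337 and 362 TPM against 124, 122 and 127 TPM (log2 1.51 ± 0.10, adjusted p = 1.57e-08). Monocyte markers were higher in blood as well (20023.2 and 7388 TPM), and their part in the Ccr2 result was not tested. Gpr18 (33.8 and 15 TPM, log2 1.12) and the follicle homing receptor Cxcr5 (34 and 17.4 TPM, log2 0.93, adjusted p = 0.0197, and up to 0.0745 with a library left out) were also higher. B cell markers (6275 and 4614 TPM) were higher in blood too, and their part in the Gpr18 and Cxcr5 results was not tested.

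Adhesion molecules were divided by family member. Of 21, 11 were higher and 5 lower in blood, with a median of 0.21, and the T cell scaling gave 16 and 5. Itga6, a laminin-binding integrin chain, was at 209, 197 and 207 TPM in blood and 60.2, 61.2 and 58.5 TPM in bone marrow (log2 1.75 ± 0.08, adjusted p = 1.33e-10). Itga4, the alpha chain of VLA-4, averaged 197 and 98.9 TPM (log2 0.98), and the hyaluronan receptor Cd44 269 and 124 TPM (log2 1.11). Itgae (CD103), an integrin alpha chain that binds epithelial E-cadherin, was the opposite case. It was at 7.33, 6.39 and 5.4 TPM in blood and 48.5, 50.4 and 50.3 TPM in bone marrow (log2 -2.79 ± 0.13, adjusted p = 2.18e-10). Itgb1 (279 and 505 TPM, log2 -0.85) and Icam1 (39.7 and 70.7 TPM, log2 -0.82) were lower too, and remained so after the T cell scaling (-0.35 and -0.32). Platelet markers (4841 and 160.4 TPM) and monocyte markers (20023.2 and 7388 TPM) were higher in blood, and granulocyte progenitor markers (667.4 and 14675.1 TPM) were lower. Their part in these results was not tested.

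Genes of effector and tissue Treg cells were lower in blood in most cases. Of 29 measured, 17 were lower and 4 higher, with a median of -0.95, and the T cell scaling gave 16 lower and 11 higher with a median of -0.45. Il1rl1, the IL-33 receptor ST2, was at 11.5, 12.5 and 13.4 TPM in blood and 116, 112 and 112 TPM in bone marrow, 9.1-fold higher in the latter (log2 -3.09 ± 0.13, adjusted p = 6.79e-11). Bone marrow exceeded lymph node (25.5 TPM) and spleen (17.4 TPM) in this gene and was below liver (156 TPM) and lung (266 TPM). Il10 was at 0.07, 0.3 and 0.41 TPM in blood and 11.2, 9.36 and 10.5 TPM in bone marrow (log2 -3.18 ± 0.20, adjusted p = 6.81e-09). Blood was the lowest of the 6 organs in Il10. Maf, a transcription factor that drives Il10, was at 20.3, 20.7 and 21 TPM against 104, 105 and 99 TPM (log2 -2.26 ± 0.06, adjusted p = 4.47e-13).

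Rgs16, a brake on G protein signalling by chemokine receptors, averaged 1.56 TPM in blood and 23.8 TPM in bone marrow (log2 -3.28). The 4 members higher in blood were Fgl2, a secreted suppressor protein also made by macrophages (218 and 78.5 TPM, log2 1.46), Cd44, the galectin Lgals3 (313 and 163 TPM, log2 0.94, adjusted p = 0.04) and the transcription factor Nfil3 (36.3 and 24.7 TPM, log2 0.54). The call of Lgals3 was lost without any single library (adjusted p up to 0.103). Monocyte markers were higher in blood, and their part in these 4 results was not tested. For the genes lower in blood, granulocyte markers were higher in bone marrow, and their part was not tested either.

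Early response genes, which cells switch on within minutes of a receptor signal or a stress, were mostly lower in blood on deposited TPM. Of 30 immediate early and receptor response genes, 20 were lower and 5 higher, with a median of -0.65 (12 lower and 11 higher after the T cell scaling, median -0.14). Jun, part of the AP-1 factor, was at 50.9, 49.7 and 50 TPM in blood and 354, 348 and 360 TPM in bone marrow (log2 -2.79 ± 0.07, adjusted p = 2.47e-13). Egr1, an early transcription factor of receptor signalling, was at 46.8, 48.4 and 46.7 TPM in blood and 247, 240 and 244 TPM in bone marrow (log2 -2.34 ± 0.11, adjusted p = 1.82e-10). Bone marrow was the highest of the 6 organs in Egr1, with 24.9 to 47.3 TPM in the other five. Tnfaip3 (A20), an inhibitor of NF-kappaB that NF-kappaB itself induces, averaged 79.8 and 345 TPM (log2 -2.10), and was far higher in liver (961 TPM) and lung (1087.8 TPM). Rgs1, which dampens chemokine receptor signals, averaged 173 and 670 TPM (log2 -1.96). Among the 5 higher in blood were Rel, an NF-kappaB subunit required by Treg cells (34.9 and 17.5 TPM, log2 0.96), and Irf8 (87.5 and 53.4 TPM, log2 0.70), which B cells and monocytes also express. Granulocyte progenitor markers (667.4 and 14675.1 TPM) and neutrophil markers (22604.9 and 38814.9 TPM) were lower in blood, and monocyte markers were higher (20023.2 and 7388 TPM). Their part in these results was not tested.

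**Figure D3:**
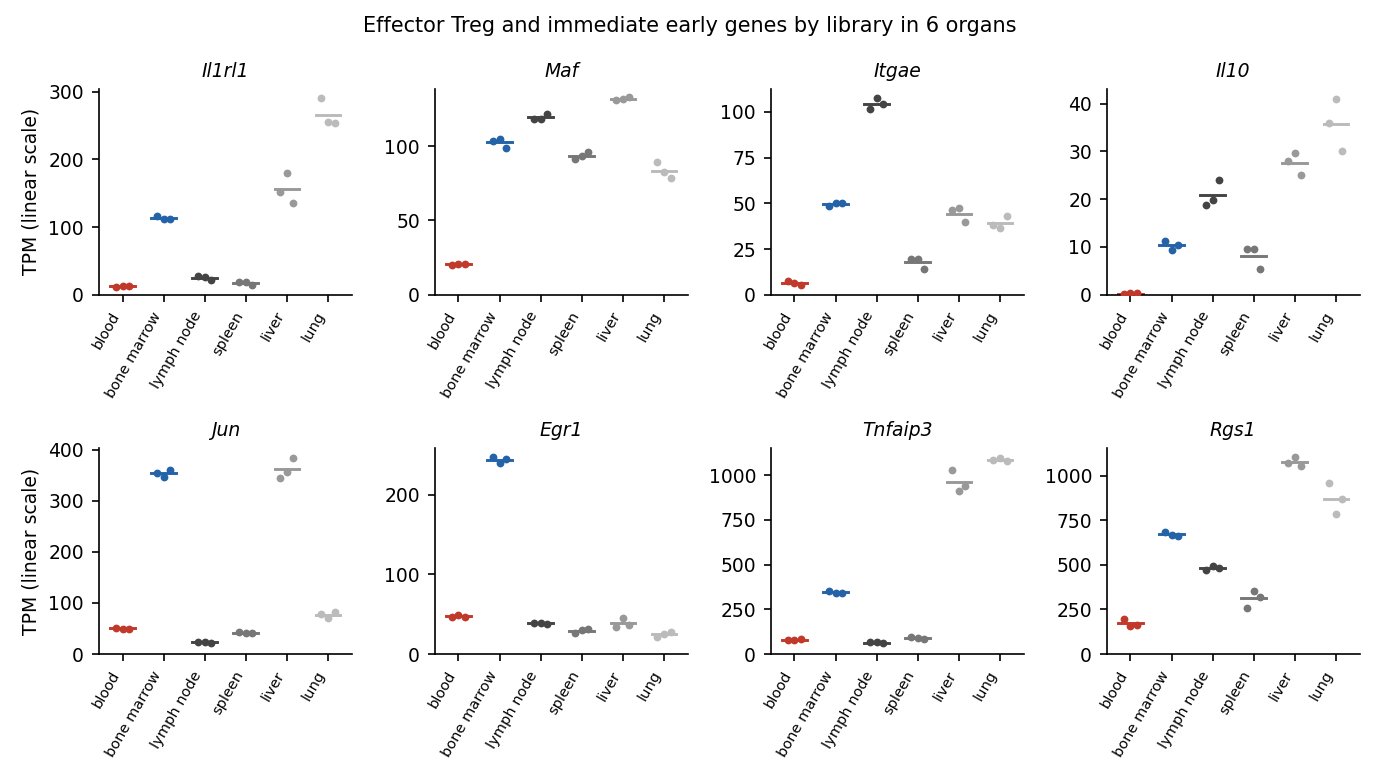
Each panel gives 1 gene in TPM (linear scale) in the 3 libraries of each of 6 organs (points) with the group mean (bar); blood is red and bone marrow blue. Blood lies below bone marrow in all 8 genes, and Egr1 is highest in bone marrow (244 TPM), while Il1rl1 and Tnfaip3 are highest in lung.

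The largest decrease towards blood belonged to the heat shock gene Hspa1b, a stress-induced Hsp70, at 8.15, 9.03 and 9.25 TPM in blood and 312, 315 and 318 TPM in bone marrow (log2 -5.01 ± 0.08, adjusted p = 2.05e-15). Its near-identical copy Hspa1a averaged 7.81 and 146 TPM and was left out by the lymph node limit (2.68 TPM). How reads were divided between these copies is uncertain. Of 16 cytosolic heat shock genes, 10 were lower and 1 higher in blood, against 25.4% lower and 12.4% higher over all genes. After the T cell scaling 3 were lower and 4 higher, against 6.01% lower and 40.6% higher over all genes. Hsp90aa1, for example, was lower at 356 against 556 TPM (log2 -0.64) and not called after that scaling (-0.13, adjusted p = 0.172).

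Cell cycle genes gave the most uniform pattern. All 26 measured genes were lower in blood, with a median log2 fold change of -2.52, and 25 of them stayed lower after scaling to the T cell genes (median -2.06). Their summed level was 1282, 1319 and 1315 TPM in the blood libraries and 3791, 3831 and 3737 TPM in the bone marrow libraries. Cdk1, the kinase that starts mitosis, was at 2.96, 3.12 and 1.2 TPM in blood and 70.1, 71.1 and 64.4 TPM in bone marrow (log2 -4.40 ± 0.53, adjusted p = 8.82e-06). Lymph node and spleen both averaged 11.8 TPM, between the compared sites. Ube2c, a ubiquitin-conjugating enzyme of mitotic exit, was at 3.09, 1.62 and 3.5 TPM against 79.2, 71.7 and 64.9 TPM (log2 -4.32 ± 0.28). Top2a, the topoisomerase that untangles replicated chromosomes, was at 6.77, 6.39 and 6.39 TPM against 114, 114 and 118 TPM (log2 -3.95 ± 0.23). Cyclin A2 (Ccna2) averaged 2.39 and 54.4 TPM (log2 -4.04), and Rrm2, a subunit of ribonucleotide reductase, 4.71 and 87.1 TPM (log2 -3.96). A further 5 cell cycle genes were among the 12 largest decreases. Birc5 (survivin), Cdca3, Cdc20, Pclaf and the methylation maintenance factor Uhrf1 were 14 to 18.7-fold lower in blood by the ratio of means.

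The promoters of such genes are known for 2 elements, the cell cycle genes homology region (CHR, TTTGAA) and the CCAAT box (CCAAT). In windows of 250 bases before the start site (RefSeq, GRCm38.p6), 22 of the 26 genes matched 25 promoters. The CHR letters stood in 8 of these (32%), against 16% of all 32851 promoter windows of the same length. CCAAT stood in 17 (68%), against 33.8%, and both in 8 (32%), against 5.55%. Both strands were searched, and a match describes letters, not a binding site or a cause. Matches can overlap and are counted each, as CCAAT and its reverse complement ATTGG in the letters CCAATTGG of the Ube2c window. The windows of 4 genes lower in blood are printed, because each holds both elements, with either strand's match to TTTGAA or CCAAT in capitals and adjoining matches run together.
Cdk1 chr10:69352913-69353162 (minus strand): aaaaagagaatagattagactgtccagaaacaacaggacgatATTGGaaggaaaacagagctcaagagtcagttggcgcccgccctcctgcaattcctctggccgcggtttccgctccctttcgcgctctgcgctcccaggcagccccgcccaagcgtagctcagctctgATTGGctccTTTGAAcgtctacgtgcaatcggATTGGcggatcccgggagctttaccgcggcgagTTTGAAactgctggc
Ube2c chr2:164769679-164769928 (plus strand): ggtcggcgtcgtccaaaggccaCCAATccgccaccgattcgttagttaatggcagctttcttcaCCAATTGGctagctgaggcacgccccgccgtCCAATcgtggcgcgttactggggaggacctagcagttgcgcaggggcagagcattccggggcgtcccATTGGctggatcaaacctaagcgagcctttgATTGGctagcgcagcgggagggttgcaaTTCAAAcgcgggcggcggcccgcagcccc
Top2a chr11:99024190-99024439 (minus strand): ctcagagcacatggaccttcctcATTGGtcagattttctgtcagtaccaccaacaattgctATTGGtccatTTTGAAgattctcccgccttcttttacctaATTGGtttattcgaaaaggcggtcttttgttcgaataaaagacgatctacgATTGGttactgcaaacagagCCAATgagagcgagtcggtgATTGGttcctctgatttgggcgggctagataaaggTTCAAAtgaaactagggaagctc
Cdc20 chr4:118437344-118437593 (minus strand): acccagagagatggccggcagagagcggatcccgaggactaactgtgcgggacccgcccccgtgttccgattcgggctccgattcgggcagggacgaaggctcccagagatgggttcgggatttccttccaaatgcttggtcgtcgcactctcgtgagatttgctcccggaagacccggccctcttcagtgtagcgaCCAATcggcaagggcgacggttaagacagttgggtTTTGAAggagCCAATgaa
In the Cdk1 window, 2 CHR and 3 CCAAT matches were found, in the Ube2c window 1 and 6, in the Top2a window 2 and 6, and in the Cdc20 window 1 and 2.

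Markers of several other lineages, some of them of precursors, were higher in the bone marrow libraries than in the blood libraries. Whether those cells were dividing was not tested. All 16 granulocyte progenitor markers were at 1 TPM or more there and 12 in blood, and their sums spanned 14555.4 to 14775.0 TPM in bone marrow against 647.3 to 680.5 TPM in blood. B cell progenitor markers summed to 164.2 and 28.48 TPM, erythroid markers to 6974 and 2984 TPM, and plasma cell markers to 615 and 123.8 TPM. In blood, Vpreb2 and Rhag of these lists were listed at 0. Between blood and bone marrow, these sums differed in the same direction as the cell cycle genes, and their part in that result was not tested. Sums for all 6 organs follow in the order blood, bone marrow, lymph node, spleen, liver and lung. The cell cycle genes summed to 1305, 3786, 2064, 1820, 2344 and 3250 TPM. Granulocyte progenitor markers summed to 667.4, 14675.1, 12.01, 160.8, 83.77 and 617.1 TPM. B cell progenitor markers summed to 28.48, 164.2, 12.37, 22.72, 11.96 and 15.37 TPM. Erythroid markers summed to 2984, 6974, 110.2, 2016, 11541.3 and 1511 TPM. Plasma cell markers summed to 123.8, 615, 61.82, 462.8, 67 and 45.89 TPM. The order across organs was not tested. The chromatin protein Hmgn2, outside the list, was among the abundant genes lower in blood (188, 163 and 174 against 593, 576 and 570 TPM, log2 -1.73 ± 0.08).

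**Figure D4:**
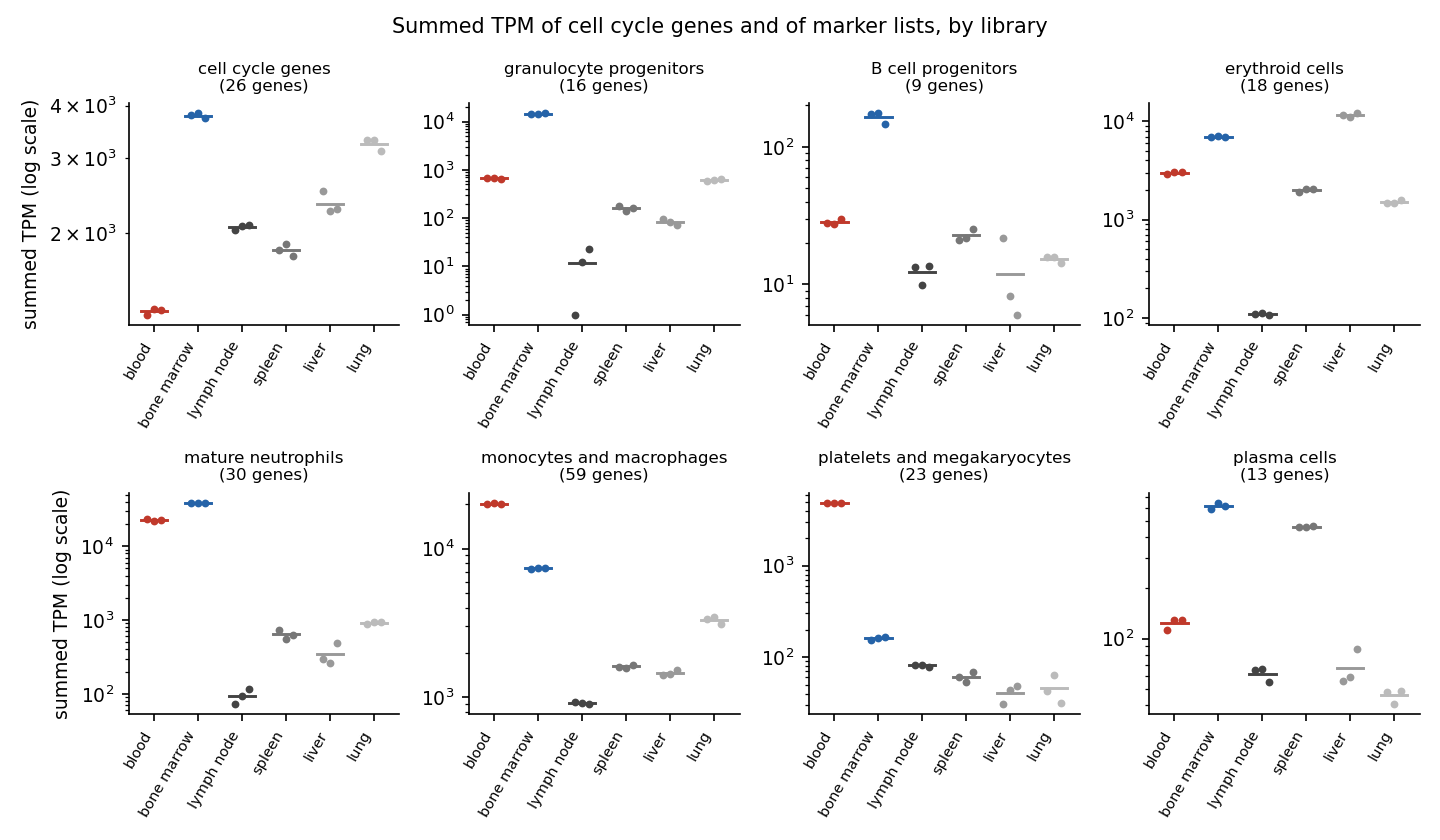
Each panel gives the summed TPM (log scale) of a gene list in the 3 libraries of each of 6 organs (points) with the group mean (bar); blood is red and bone marrow blue. The 26 cell cycle genes sum to 1305 TPM in blood and 3786 TPM in bone marrow, and granulocyte progenitor, B cell progenitor, erythroid and plasma cell markers are also higher in bone marrow, while monocyte and platelet markers are higher in blood.

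Genes of cytokine and survival signalling gave mixed results. Of 20 IL-2 receptor, STAT5 and feedback genes, 6 were higher and 7 lower in blood (12 and 5 after the T cell scaling). Cish, a feedback inhibitor induced by STAT5, was at 16.7, 17.9 and 16.9 TPM in blood and 76.1, 77.5 and 74.8 TPM in bone marrow (log2 -2.08 ± 0.07, adjusted p = 5.75e-12). Its direction was opposite to that of Il2ra in the same libraries. Socs1 (8.32 and 17.6 TPM, 2.11-fold) and Osm (52.1 and 109 TPM, log2 -1.05) were lower, and Socs3 (132 and 64.4 TPM, log2 1.02) and Dusp6 (132 and 47.2 TPM, log2 1.47) were higher. The survival genes Bcl2 and Mcl1 were both higher in blood. Bcl2 was at 65, 63 and 62 TPM against 21.4, 20.3 and 21.4 TPM (log2 1.55 ± 0.11, adjusted p = 2.05e-08), and Mcl1 at 815, 762 and 812 TPM against 305, 313 and 314 TPM (log2 1.35 ± 0.04, adjusted p = 2.32e-12). Of all 11 Bcl2 family genes measured, 3 were higher and 2 lower, and 6 and 0 after the T cell scaling. Monocyte markers (20023.2 and 7388 TPM) were higher in blood and neutrophil markers (22604.9 and 38814.9 TPM) were lower. Their part in the results on cytokine and survival genes was not tested.

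Interferon response genes were higher in blood. Of 26, 15 were higher and 3 lower, with a median of 0.44, and the T cell scaling gave 22 and 0. Usp18, which limits interferon receptor signalling, was at 29.5, 28.8 and 24 TPM in blood and 10.3, 9.95 and 10.2 TPM in bone marrow (log2 1.34 ± 0.19, adjusted p = 5.08e-05). Rtp4 averaged 69 and 31.9 TPM (log2 1.09), Trim30a 127 and 61.8 TPM (log2 1.02), and the transcription factor Irf7 120 and 65.8 TPM (log2 0.85). Among the 3 lower were Ly6a (Sca-1; 137 and 197 TPM, log2 -0.52, not called after the T cell scaling at -0.02) and Ly6e (2058.3 and 2568.6 TPM, log2 -0.32, turning to 0.19 after it). Monocyte markers were higher in blood, and their part was not tested. TGF-beta pathway genes were also mostly higher in blood, with 8 higher and 1 lower of 14 and a median of 0.36 (13 and 0 after the T cell scaling), Lrrc32 leading them. The part of platelet RNA, whose markers were higher in blood (4841 and 160.4 TPM), was not tested.

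Genes of extracellular adenosine production and sensing did not move together. Of 14 adenosine and purine genes, 4 were higher and 8 lower in blood (6 and 3 after the T cell scaling). Entpd1 (CD39), which degrades extracellular ATP, was at 73.7, 86.9 and 75 TPM in blood and 43, 38.5 and 37 TPM in bone marrow (log2 0.97 ± 0.32, adjusted p = 0.0297). The groups did not overlap, but the call was lost without any single library (adjusted p 0.0546 to 0.093). Nt5e (CD73), the next enzyme of the pathway, was at 43.8, 42.4 and 46.5 TPM against 60.6, 58.2 and 57.2 TPM (log2 -0.40 ± 0.05, adjusted p = 3.47e-05), but at 0.10 and not called after the T cell scaling (adjusted p = 0.219). The receptor Adora2a averaged 18.9 and 52.2 TPM (log2 -1.43), the nucleoside transporter Slc29a1 25.8 and 55.7 TPM (log2 -1.08), and the cAMP-responsive factor Crem 11.8 and 38.2 TPM (log2 -1.68). The cAMP phosphodiesterase Pde4b was higher in blood (74.3 and 40.3 TPM, log2 0.87). Monocyte markers (20023.2 and 7388 TPM) and B cell markers (6275 and 4614 TPM) were higher in blood, and neutrophil markers (22604.9 and 38814.9 TPM) were lower. Their part in these results was not tested.

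Steroid response genes were divided too, with 2 higher and 8 lower of 12 (4 and 6 after the T cell scaling). Fkbp5 (22.2 and 53.4 TPM, log2 -1.23) and Ddit4 (38.5 and 82.2 TPM, log2 -1.07) were lower in blood. Tsc22d3 (GILZ, 475 and 339 TPM, log2 0.48) and Txnip, an inhibitor of glucose uptake (929 and 489 TPM, log2 0.92), were higher. As above, monocyte and B cell markers were higher in blood and neutrophil markers lower, and their part was not tested.

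Metabolic and protein synthesis genes were counted on both scales. Over all 8421 genes, 12.4% were higher and 25.4% lower on deposited TPM, and 40.6% and 6.01% after the T cell scaling. Of 17 glycolysis genes 13 were lower in blood and 0 higher, with a median of -0.44, but after the T cell scaling 6 were higher and 2 lower (median 0.06). Gapdh remained lower on each scale (756, 810 and 812 against 1416.9 TPM on average in bone marrow, log2 -0.84, and -0.33 after that scaling). Of 77 nuclear respiratory chain genes 34 were lower and 1 higher (median -0.36), against 0 and 16 after the scaling. Of 37 proteasome genes 20 were lower and 0 higher (median -0.37), against 0 and 12. Of 80 cytosolic ribosomal protein genes 40 were lower and 7 higher (median -0.11), against 0 and 76. The 13 mitochondrially encoded mRNAs differed from the nuclear genes of the same complexes in their counts, with 9 higher in blood and 0 lower (median 0.68), and 11 and 0 after the scaling. The mRNA mt-Nd2, a subunit of complex I, averaged 2750.9 TPM in blood and 1389.9 TPM in bone marrow (log2 0.98 ± 0.09, adjusted p = 2.54e-07). The gap between these medians was not tested.

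The genes with the largest log2 fold changes towards blood were led by Ctla2a, Tsc22d1 and Prg4. Ctla2a, a cathepsin inhibitor-like protein, was at 2550.2, 2453 and 2567 TPM in blood and 60.8, 65.5 and 63.7 TPM in bone marrow, 39.8-fold higher in blood (log2 5.29 ± 0.16, adjusted p = 2.32e-12). Lymph node averaged 23.2 TPM, and no other organ exceeded 174 TPM. Tsc22d1, a leucine zipper transcription regulator, was at 754, 738 and 759 TPM against 31.5, 38.8 and 32.2 TPM (log2 4.42 ± 0.26), and Prg4, a secreted lubricating proteoglycan, at 171, 161 and 186 TPM against 8.7, 7.56 and 6.88 TPM (log2 4.32 ± 0.19). The tetraspanin Cd9 (664 and 83 TPM, log2 2.99), the lipid carrier Apoe (1228.3 and 178 TPM, log2 2.78) and the RNA sensor Tlr7 (52.1 and 7.76 TPM, log2 2.60) followed. Platelet markers were at 4796 to 4882 TPM in blood and 153.8 to 164.4 TPM in bone marrow, with all 23 at 1 TPM or more in blood and 17 in bone marrow, and monocyte markers were 20023.2 and 7388 TPM. Their part in these results was not tested.

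The remaining leading genes were Ms4a4c (223 and 35.3 TPM, log2 2.67), Myo6 (48.4 and 7.27 TPM, log2 2.59), Gngt2 (191 and 32.9 TPM, log2 2.52), Mmd (92 and 15.3 TPM, log2 2.51) and Ecm1, a secreted matrix protein. Ecm1 was at 199.6, 194 and 207 TPM in blood and 36.4, 32.5 and 33.7 TPM in bone marrow (log2 2.52 ± 0.16, adjusted p = 5.88e-09). Ecm1 was also abundant in lymph node (146 TPM) and spleen (101 TPM). Slfn1, a Schlafen family gene of quiescent T cells, was at 399.8, 399 and 390.2 TPM against 122, 122 and 122 TPM (log2 1.69 ± 0.07, adjusted p = 6.45e-11). Monocyte markers (20023.2 and 7388 TPM) and platelet markers (4841 and 160.4 TPM) were higher in blood. Their part in the results on these leading genes was not tested.

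**Figure D5:**
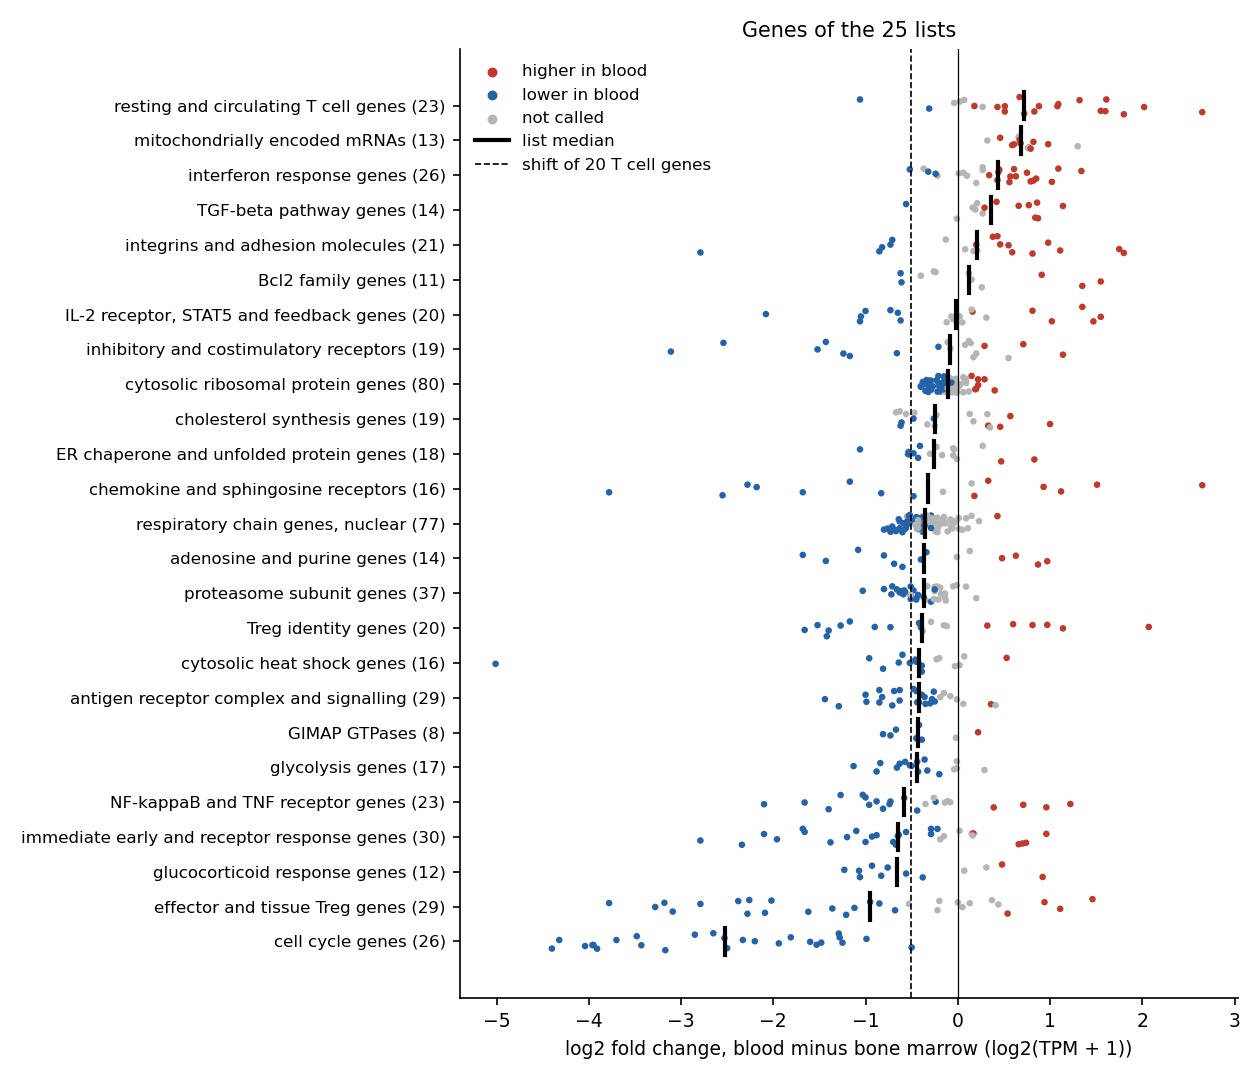
Each point is a gene of a list (number measured in brackets) at its log2 fold change, blood minus bone marrow, coloured by the call on deposited TPM; black bars are list medians and the dashed line is the shift of the 20 T cell genes (-0.51). Cell cycle genes lie lowest (median -2.52), effector genes next (-0.95), and resting T cell genes highest (0.72).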

How the data were processed

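Poly(A) RNA libraries were made with a strand-specific kit, per the labels' protocols. The authors deposited 1 table of TPM values per library. STAR, RSEM and the mm10 build (the same as GRCm38) are named in the submitters' processing notes, without versions. The annotation and the strand setting of the counting are not given in the sources used here. Symbols and coordinates came from GENCODE, which matched 55141 of 55487 gene IDs. The TPM summed to between 999999.27 and 1000000.62 per library. TPM keeps no read depth, so count tests were not run and no counting intervals are given.

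Values were tested as log2(TPM + 1), on which differences between low values come out too small. A gene entered the test if any of the 6 group means reached 1 TPM. limma 3.58.1 in R 4.3.3 was fitted to all 18 libraries with a term for each group and no covariate, and variances were moderated (trend and robust settings). The step was tested on simulated data. The T cell scaling divided each library by the geometric mean level (TPM + 1) of 20 T cell genes, among them Cd3e, Lck and Trac, and the median-ratio scaling by the median ratio to the mean library.

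Named genes were the 12 with the largest log2 fold change per direction, the 6 per direction of at least 100 TPM in lymph node, up to 4 per direction and list, and 10 fixed Treg and homing genes. For the first 2 sets, libraries could not overlap, the higher group needed 10 TPM, the call had to hold after the T cell scaling, and marker, receptor segment, ribosomal, mitochondrial and predicted genes were left out. The members, the 25 gene lists and the 13 marker lists were chosen with earlier results of these data known. Whether replicate numbers pair the samples is not known. Same-numbered blood and bone marrow libraries deviated from their group means with correlations of -0.121, -0.0166 and -0.0807. With 3 libraries per group, such values cannot decide it. Some genes of these lists are not reported here by name. Figures were drawn with matplotlib 3.10.9.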

Additional observations from a re-analysis of the deposited data

How the results depend on the processing

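Among the 8421 genes, the counts higher and lower in blood on deposited TPM (1047 and 2136) became 3419 and 506 after scaling to the T cell genes, 1688 and 1210 under median-ratio scaling, 1672 and 3491 when only the 6 compared libraries were fitted, and 1720 and 3673 with library weights. At a lymph node limit of 50 TPM fewer genes entered, and 485 and 1128 were called. Leaving out each library in turn gave 833 to 904 higher and 1672 to 1773 lower genes. The pseudocounts of 0.5 and 5, no filter on low values, removal of abundant and marker genes, and a lymph node limit of 5 TPM each stayed within 1.5 times of both counts. With the replicate number as a block, 1020 genes were higher and 2052 lower, though whether the numbers pair the samples is not known.

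Of the named genes, 3 changed direction, all after the T cell scaling: Klf2 (0.20), Ly6e (0.19) and Nt5e (0.10). S1pr1, Entpd1 and Lgals3 lost their calls without any single library. The cause of these changes was not tested. Low genes are the least precise, and a TPM near 0 is not evidence of absence.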

Other observations

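Of 23 NF-kappaB and TNF receptor genes, 14 were lower and 4 higher in blood, with a median log2 fold change of -0.58, and the T cell scaling gave 8 and 8. Tnfaip3 (log2 -2.10) and Tnfrsf4 (log2 -1.66) were the lowest members, and Rel (log2 0.96) and Tnfrsf1b (log2 0.71) were among the higher ones. Of 8 GIMAP GTPases, which support lymphocyte survival, 6 were lower and 1 higher (2 and 2 after the T cell scaling). Over all 8421 genes, 12.4% were higher and 25.4% lower on deposited TPM, and 40.6% and 6.01% after the T cell scaling. Of 18 endoplasmic reticulum chaperone and unfolded protein response genes, 7 were lower and 2 higher (1 and 7 after that scaling, near the shares of all genes). Among them, the stress factor Atf4 averaged 128 TPM in blood and 268 TPM in bone marrow (log2 -1.06 ± 0.06). Xbp1, a transcription factor of secretory cells, was at 143, 136 and 136 TPM in blood and 76.1, 80.3 and 76.2 TPM in bone marrow (log2 0.83 ± 0.09). B cell markers (6275 and 4614 TPM), monocyte markers (20023.2 and 7388 TPM) and dendritic cell markers (131.8 and 60.73 TPM) were higher in blood and plasma cell markers were lower (123.8 and 615 TPM), and their part was not tested. Of 19 cholesterol synthesis genes, 4 were higher and 4 lower on deposited TPM, 5 and 1 under median-ratio scaling, and 9 and 0 after the T cell scaling.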
